A study of Mus musculus with 2 samples.

Results

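Genes of stellate cell activation and of the matricellular matrix were examined in mouse liver. The 10 genes are Ccn1, Ccn2, Thbs1, Acta2, Tagln, Des, Timp1, Lox, Dcn and Pdgfrb. They were found as the probe sets whose single gene symbol in the platform annotation was one of these names, which gave 21 probe sets of 45037 and all 10 genes of 18193. Several probe sets read 7 of the genes, and 1 probe set read each of the other 3. The tissue was liver of Bglu3 congenic mice, with 1 Affymetrix array, compared with liver of C57BL/6 apoE-/- control mice, also with 1 array. Bglu3 is a blood glucose locus of chromosome 1. In a congenic strain a stretch of donor chromosome has been bred onto another background, here labelled C57BL/6. Both groups are labelled hyperglycemic, ate chow from weaning at 3 weeks, and were then fed a Western diet from 6 weeks of age for 12 weeks. The labels give neither the apoE genotype of the congenic mice nor the donor strain, the ends of the segment, the number of mice behind each array or any pooling.

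Hepatic stellate cells are the vitamin A-storing pericytes of the liver sinusoid. On injury they become contractile, matrix-producing cells that make smooth muscle actin and fibrillar collagen, and they respond to platelet-derived growth factor and TGF-beta. Matricellular proteins such as those of the CCN family and the thrombospondins are secreted into the matrix and act on cells through integrins and other receptors. Ccn1 and Ccn2 are also classical target genes of the YAP and TEAD transcription complex, and Ccn1 is known as an immediate early gene.

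The deposited values are linear intensities, with an array median of 19.3 for the congenic and 19.7 for the control liver. A gene was represented by its brightest probe set and called expressed when that probe set reached the median of at least 1 array, which 12613 genes did. A dim gene that passes through 1 array alone is usually brighter there, so its difference is partly set by the filter, and where such genes lie past 1.5-fold this is said beside the count. A difference is the congenic value minus the control value of log2(intensity + 5), a scale that understates changes in genes of low signal. Because each group has a single array, no replicate check, standard error or test exists. Genes were therefore counted by a fixed size of 1.5-fold, a log2 difference of 0.58. The log2 differences of probe sets for the same gene had an SD of 0.34, which measures disagreement within this pair of arrays and not between mice. In bulk tissue, fewer cells of a type and less RNA per cell cannot be told apart.

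Ccn1 had by far the largest difference of the 10 genes and was higher in the congenic liver. In their brightest probe sets Acta2 and Pdgfrb were higher by smaller amounts and Thbs1 was lower. The other probe set of Pdgfrb went the opposite way. Ccn2, Tagln, Des, Timp1 and Dcn lay within 1.5-fold, and Lox was too dim on both arrays to count as expressed. Of the 9 expressed members, 3 were higher and 1 was lower by 1.5-fold or more, against 7.59% of all expressed genes higher and 5.26% lower. A difference above 0 was found in 7 of the 9. Past 1.5-fold in either direction were 4 of the 9 (44.4%), against 12.9% of all expressed genes. The 1 lower member, Thbs1, passed the filter through the control array alone, so its difference is partly set by the filter. The median log2 difference over the 9 was 0.11, beside 0.04 over all expressed genes, and it was 0.10 without Ccn1. Of the 15 member probe sets that reached the median of an array, 6 were higher and 2 lower by 1.5-fold or more, against 7.22% and 6.04% of all such probe sets. Of these 6 probe sets, 4 read Ccn1, so they do not stand for separate genes. Both lower probe sets read Thbs1 and reached the median of the control array alone.

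**Figure D1:**
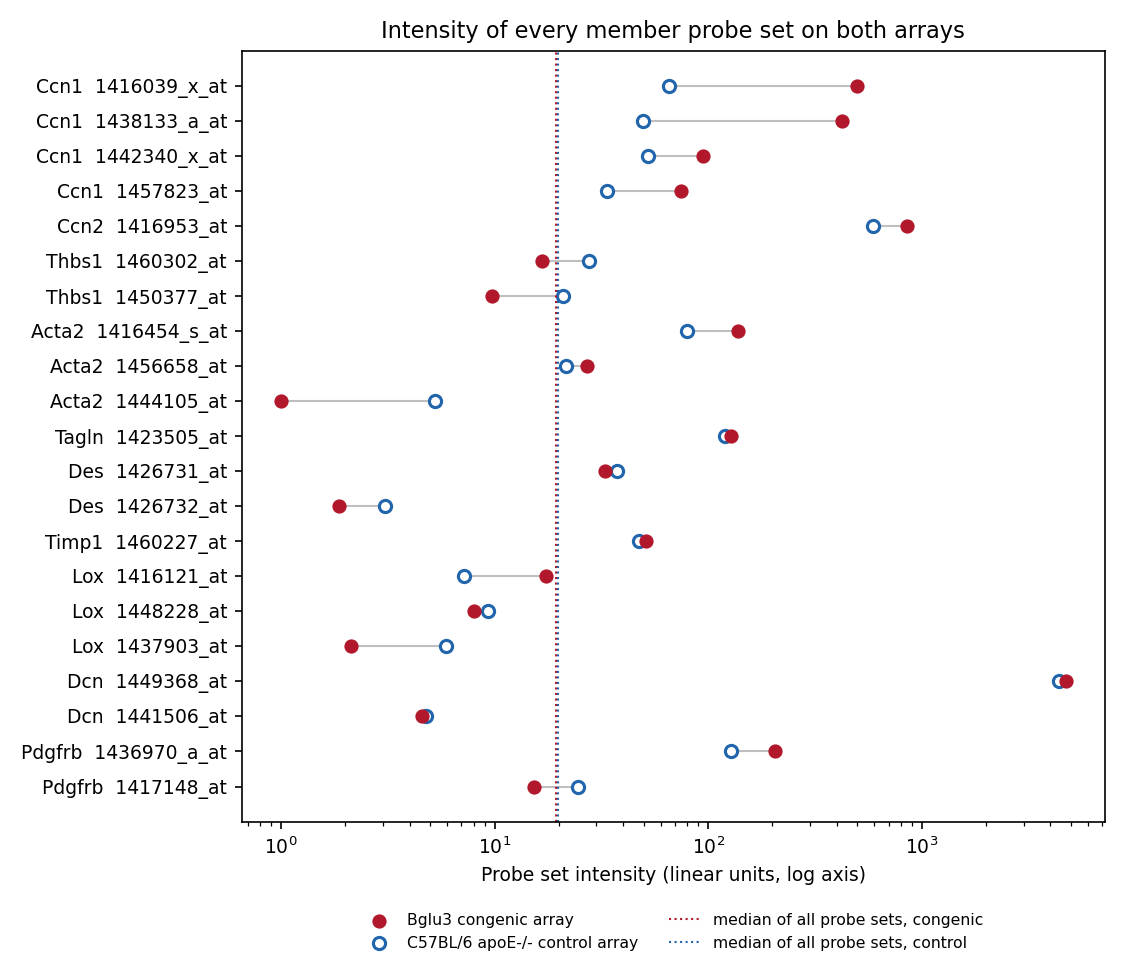
Intensity of the 21 member probe sets (linear units on a log axis) on the Bglu3 congenic array (filled) and the C57BL/6 apoE-/- control array (open), joined per probe set. The dotted lines mark the array medians of 19.3 and 19.7. The filled points of all 4 Ccn1 probe sets lie right of the open ones, and the points of Tagln, Timp1 and the brighter Dcn probe set nearly coincide.

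Among the matricellular genes, Ccn1, which encodes a cysteine-rich secreted protein that binds integrins, was higher in the congenic liver in all 4 of its probe sets. Probe set 1416039_x_at stood at 497 in the congenic and 65.4 in the control liver, a log2 difference of 2.83 or 7.13-fold. Probe set 1438133_a_at stood at 424 in the congenic and 49.5 in the control liver, a log2 difference of 2.98. By its brightest probe set alone, 1416039_x_at, Ccn1 had rank 8 from the highest among the 12613 expressed genes. Probe set 1457823_at read 74.4 in the congenic and 33.7 in the control liver, a log2 difference of 1.04, and probe set 1442340_x_at read 94.9 and 52.3 in the same order, a log2 difference of 0.80. The smaller 2 values come from probe sets that the annotation ties to the same design sequence. All 4 probe sets thus lay past 1.5-fold in one direction, but they fell into a pair near 3 and a pair near 1 on the log2 scale. The suffix _x_at marks probe sets in which some probes can also bind other sequences, and it occurs in both pairs.

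The 300-base window around the annotated start of Ccn1 is printed because this gene carries the largest difference, and those of Acta2 and Timp1 because the first was higher and the second near 0. RefSeq promoter windows on GRCm38.p6, 250 bases before the start to 50 after it, matched 4 of the 10 genes, the fourth being Des. Capitals mark the TEAD core CATTCC on either strand. The windows are chr3:145649936-145650235 on the minus strand for Ccn1, chr19:34255324-34255623 on the minus strand for Acta2 and chrX:20869916-20870215 on the plus strand for Timp1, each 5′ to 3′ along the gene.
Ccn1: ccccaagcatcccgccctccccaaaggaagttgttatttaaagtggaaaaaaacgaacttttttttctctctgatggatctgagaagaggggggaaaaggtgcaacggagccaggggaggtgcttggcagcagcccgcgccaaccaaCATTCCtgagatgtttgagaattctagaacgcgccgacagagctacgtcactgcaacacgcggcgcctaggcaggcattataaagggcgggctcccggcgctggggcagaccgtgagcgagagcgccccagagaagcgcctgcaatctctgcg
Acta2: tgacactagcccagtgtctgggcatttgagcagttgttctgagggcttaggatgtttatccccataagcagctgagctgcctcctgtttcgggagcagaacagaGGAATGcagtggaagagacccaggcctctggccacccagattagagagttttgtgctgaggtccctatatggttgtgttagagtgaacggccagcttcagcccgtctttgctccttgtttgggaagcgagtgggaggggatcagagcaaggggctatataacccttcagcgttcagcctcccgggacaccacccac
Timp1: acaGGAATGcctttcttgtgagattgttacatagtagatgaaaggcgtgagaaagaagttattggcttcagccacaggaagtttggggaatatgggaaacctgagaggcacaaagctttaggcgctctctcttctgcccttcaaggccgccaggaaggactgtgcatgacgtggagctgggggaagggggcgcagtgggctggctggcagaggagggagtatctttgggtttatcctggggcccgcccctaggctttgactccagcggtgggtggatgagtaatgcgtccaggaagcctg
The core began 103 bases before the start in Ccn1. It lay on the opposite strand in Acta2, 146 bases before the start, and in Timp1, 247 bases before it. The Des window held none. Across 32851 windows of this length, 14.7% held the core on either strand. The exact TATA box letters TATAAA, searched on both strands, occurred in Ccn1 alone of the 4, 25 bases before the start, and in 13.6% of all windows. This search does not count close variants, such as the letters tatataa in the Acta2 window. The AP-1 motif TGANTCA and the CRE motif TGACGTCA, each searched on both strands, matched none of the 4 windows and 7.81% and 1.79% of all windows. The CArG box of serum response factor, searched as CC, 6 bases that are all A or T, and GG, which reads alike on both strands, matched none of the 4 and 1.63% of all windows. With 1 of the 6 bases free, it matched at 2 places in Acta2, 84 and 34 bases before the start, not in the other 3 windows, and in 9.98% of all windows. No match of one motif overlapped a match of another in these windows. These matches describe letters in a window and not binding, and their bearing on the levels of the genes was not tested.

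Ccn2, which encodes connective tissue growth factor, differed less than Ccn1. Its single probe set stood at 852 in the congenic and 589 in the control liver, a log2 difference of 0.53 or 1.44-fold, just inside the 1.5-fold limit. The other expressed members of the CCN family were near 0. Ccn5 stood at 50.1 in the congenic and 56.3 in the control liver (log2 difference -0.15) and Ccn6 at 66.9 and 68.0 in the same order (-0.02). Ccn1 was thus the only one of the 4 expressed CCN genes past 1.5-fold, and 2 more family members, Ccn3 and Ccn4, were not expressed.

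Thbs1 encodes thrombospondin 1, which can release TGF-beta from its latent complex, and its direction was the opposite of that of Ccn1. Probe set 1460302_at stood at 16.8 in the congenic and 27.7 in the control liver, a log2 difference of -0.59. Probe set 1450377_at stood at 9.69 in the congenic and 21.0 in the control liver, a log2 difference of -0.82. Both probe sets were lower in the congenic liver, and both lay below the median of the congenic array, so Thbs1 counted as expressed through the control array alone. The value of -0.59 is barely past the limit of -0.58, and it fell inside it after median centring (-0.56), quantile normalization (-0.57) or removal of a loess trend (-0.56). Among the dimmest of 3 equal groups of expressed genes, where Thbs1 falls, 22.8% differed by 1.5-fold or more. Thbs2, the other expressed thrombospondin, stood at 50.9 in the congenic and 53.8 in the control liver (log2 difference -0.07). Of 12 other expressed matricellular genes, 2 were higher and 0 lower by 1.5-fold or more, with a median of 0.07. The 2 were Spon2 (62.9 in the congenic and 33.6 in the control liver, log2 difference 0.81) and Spon1 (36.3 and 18.5, also 0.81), which encode spondins, and Spon1 passed the filter through the congenic array alone. The lowest of the 12 were Tnc, tenascin C, at -0.35 and Sparcl1 at -0.24.

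Of the target genes of YAP and TEAD, Amotl2 differed most after Ccn1. Of 20 expressed targets, 5 were higher and none was lower by 1.5-fold or more, 15 were above 0, and the median was 0.35. Ankrd1 and F3, which are 2 of the 5, passed the filter through the congenic array alone, where they are brighter. Of the 17 targets that reached the median of both arrays 3 were higher, and without Ccn1 and Ccn2 these were 2 of 15 (Amotl2 and Asap1) with a median of 0.15. Amotl2, which encodes an angiomotin-like protein that binds YAP, stood at 245.8 in the congenic and 79.1 in the control liver, a log2 difference of 1.58. F3, tissue factor, stood at 24.5 in the congenic and 13.8 in the control liver (0.65), a dim pair of values. At the other end was Gadd45a, a stress-response gene, at -0.40. The pathway's own components differed less, since none of 14 expressed Hippo genes lay past 1.5-fold. Yap1 itself stood at 498 in the congenic and 483 in the control liver (log2 difference 0.04), between Vgll4 at -0.26 and Mob1a at 0.36. Of the 15 listed targets with a promoter window, 7 (46.7%) held the TEAD core, against 14.7% of all windows. The 7 were Amotl2, Ankrd1, Axl, Ccn1, Crim1, Lats2 and Ptpn14. The 15 genes have 17 windows and count by any match, which is a looser rule than the share per window. Whether the core bears on their levels was not tested.

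Immediate early genes, the class to which Ccn1 belongs, were split in direction. Of 27 expressed genes, 4 were higher and 4 lower by 1.5-fold or more, with a median of -0.04. Fos stood at 1195 in the congenic and 202 in the control liver (log2 difference 2.54) and Jun at 1163 and 402 (1.52), both being subunits of AP-1. Maff, a small Maf factor, stood at 22.6 in the congenic and 139.7 in the control liver (-2.39), and Fosl2 at 91.6 and 166 (-0.82). Egr1, another early gene, was within the limit at a log2 difference of -0.40. Fos and Jun thus lay on the side of Ccn1, while the list as a whole was balanced between directions.

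**Figure D2:**
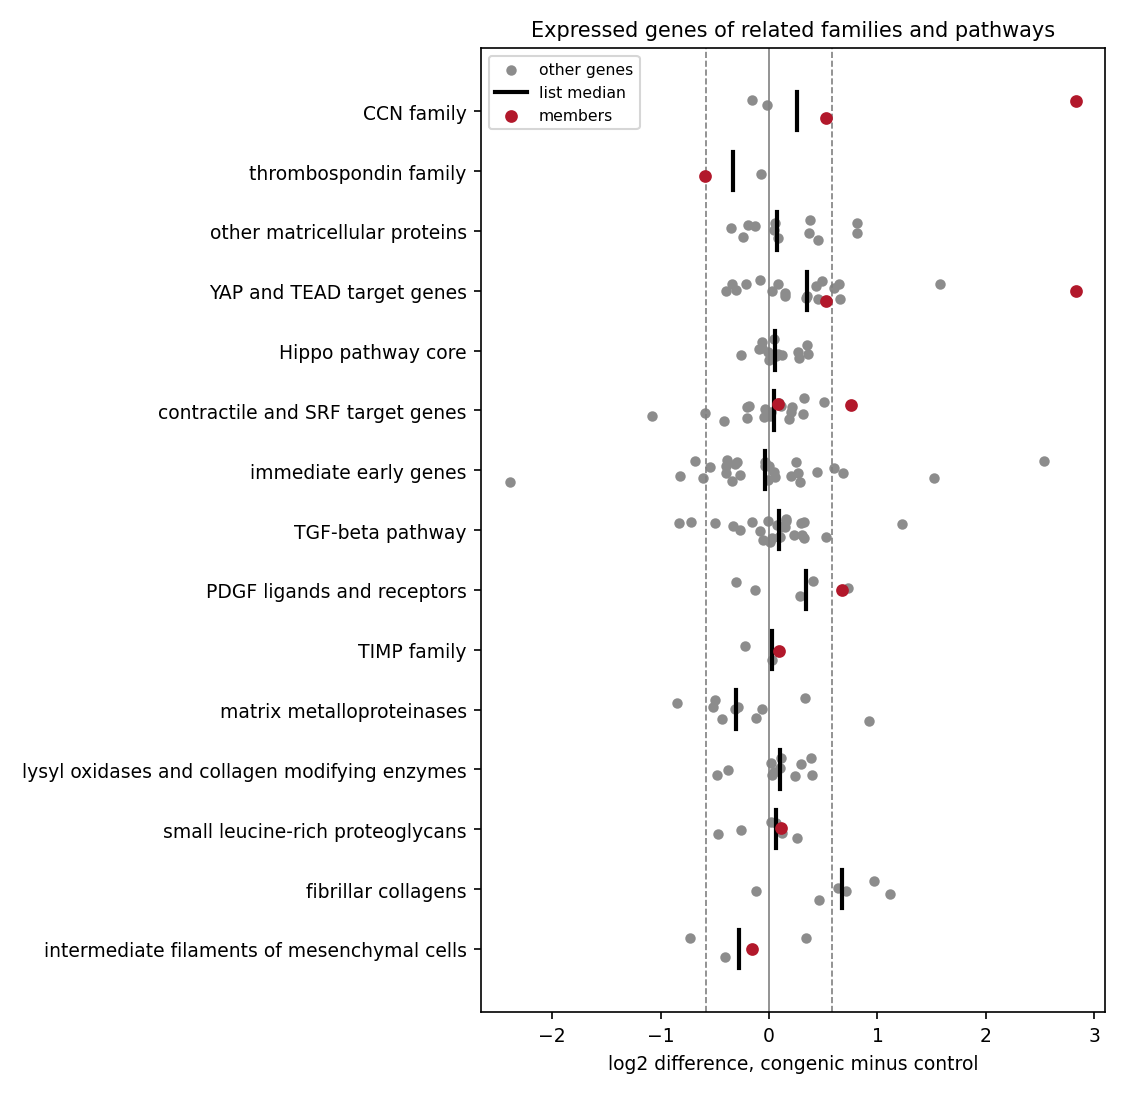
Log2 difference, congenic minus control, of each expressed gene (points) in 15 families and pathways, with the members in red and the list median as a bar. The dashed lines mark 1.5-fold (0.58 and -0.58). Fibrillar collagens have the median farthest right (0.67), Fos and Ccn1 stand at the right edge, and Maff stands alone at the left.

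Among the cytoskeletal genes, Acta2 alone was past 1.5-fold, while Tagln and Des were near 0. Acta2 encodes smooth muscle alpha-actin, the usual marker of activated stellate cells. Its brightest probe set, 1416454_s_at, stood at 137.6 in the congenic and 79.6 in the control liver, a log2 difference of 0.75 or 1.69-fold. The suffix _s_at marks probes shared by transcripts of more than one gene, and which other transcripts these probes can bind was not tested. Probe set 1456658_at stood at 27.0 in the congenic and 21.6 in the control liver, a log2 difference of 0.27. The dim probe set 1444105_at read 1 in the congenic and 5.28 in the control liver, below the median of both arrays, and 1 is a low value that recurs across the table. The 2 probe sets of Acta2 that reached an array median were both higher in the congenic liver, but the one without shared probes lay within 1.5-fold.

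Tagln encodes transgelin, an actin-binding protein of smooth muscle that is often used beside Acta2. Its single probe set stood at 127 in the congenic and 120.2 in the control liver, a log2 difference of 0.08. Des encodes desmin, the intermediate filament protein of muscle and of rodent stellate cells, and lies on chromosome 1, the chromosome of the congenic segment. Probe set 1426731_at of Des stood at 32.9 in the congenic and 37.2 in the control liver, a log2 difference of -0.16. Probe set 1426732_at was dim on both arrays, at 1.87 and 3.07 in the same order. Neither gene differed by 1.5-fold on any probe set.

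The contractile and serum response factor list gave no wider lean. Of 18 expressed genes of this list other than Acta2 and Tagln, 0 were higher and 2 lower by 1.5-fold or more, with a median of 0.01. The 2 lower genes were Srf, the serum response factor itself, at 137 in the congenic and 295 in the control liver (log2 difference -1.08), and Tpm2, a tropomyosin, at 325 and 492 (-0.59). The 2 expressed probe sets of Srf disagreed, at -1.08 and 0.35, whereas the 3 of Tpm2 lay between -0.95 and -0.59. Cnn2, calponin 2, was the highest after Acta2 at 208 in the congenic and 145 in the control liver (0.51), followed by the myosin light chain gene Myl9 (0.32). Among intermediate filament genes, Vim stood at 2168 in the congenic and 1713 in the control liver (0.34), Nes differed by -0.40 and Gfap by -0.73.

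**Figure D3:**
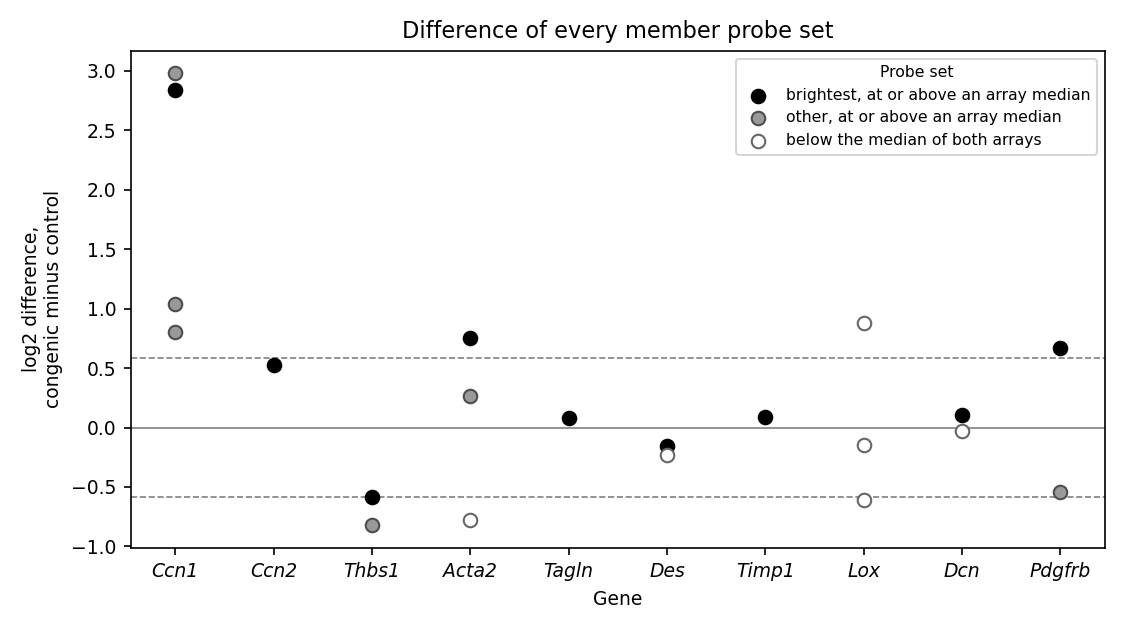
Log2 difference, congenic minus control, of every probe set of the 10 genes, with the brightest probe set in black, others that reached an array median in grey and dim ones open. The dashed lines mark 1.5-fold. All Ccn1 points lie above the upper line, both Thbs1 points at or below the lower one, and the Pdgfrb and Lox points lie on both sides of 0.

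Of the 3 members that act in matrix turnover and assembly, Timp1 and Dcn were near 0 and Lox was dim. Timp1 encodes a tissue inhibitor of metalloproteinases that is induced in fibrotic liver. Its single probe set stood at 51.0 in the congenic and 47.6 in the control liver, a log2 difference of 0.09. The other expressed inhibitors were also within 1.5-fold, with Timp2 at 0.02 and Timp3 at -0.22. Of 10 expressed matrix metalloproteinases, 1 was higher and 1 lower by 1.5-fold or more, and the median was -0.30 with 2 of the 10 above 0. The higher one was Mmp8, the neutrophil collagenase, at 49.9 in the congenic and 23.9 in the control liver (0.92). The lower one was Mmp23 at 17.1 in the congenic and 34.7 in the control liver (-0.84), followed by Mmp24 (-0.52), and both passed the filter through the control array alone. Mmp14, a membrane-anchored collagenase, stood at 1076 in the congenic and 854.5 in the control liver (0.33).

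Lox encodes lysyl oxidase, which cross-links collagen and elastin, and all 3 of its probe sets lay below the median of both arrays. Probe set 1416121_at stood at 17.3 in the congenic and 7.16 in the control liver, 1448228_at at 7.98 and 9.35, and 1437903_at at 2.13 and 5.90. Their log2 differences of 0.88, -0.14 and -0.61 had no common direction, and the first 2 probe sets are tied to the same design sequence. No direction is given for Lox on these arrays. Of 11 expressed genes for other lysyl oxidases and collagen-modifying enzymes, none lay past 1.5-fold, with a median of 0.10. They ranged from P4ha1, a prolyl hydroxylase subunit, at -0.48 to Tgm2, a transglutaminase, at 0.40, with P4ha2 at -0.38 and Pcolce, the procollagen C-proteinase enhancer, at 0.38.

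Dcn encodes decorin, a small leucine-rich proteoglycan that binds collagen fibrils and TGF-beta. Probe set 1449368_at stood at 4706 in the congenic and 4366 in the control liver, a log2 difference of 0.11. Probe set 1441506_at read 4.58 in the congenic and 4.8 in the control liver, below the median of both arrays, with a log2 difference of -0.03. Both probe sets of Dcn were close to equal on the arrays. Of 6 other expressed small leucine-rich proteoglycans, none was past 1.5-fold, between Ogn, osteoglycin, at -0.47 and Prelp at 0.25, and with Omd at -0.26 and Fmod, fibromodulin, at 0.12.

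Fibrillar collagens are the main product of activated stellate cells. Of 6 expressed chains, 4 were higher and none was lower by 1.5-fold or more, with a median of 0.67. Col1a1 stood at 56.2 in the congenic and 23.2 in the control liver (log2 difference 1.12), and Col3a1 at 1243 and 634 (0.97). The 2 expressed probe sets of Col3a1 lay between 0.94 and 0.97 and those of Col1a2 between 0.71 and 0.88. Col5a1 (-0.12) and Col5a3 (0.46) were the lowest of the 6. The collagens thus lay on the same side as the brightest probe sets of Acta2 and Pdgfrb. The other expressed probe sets of Acta2 and Pdgfrb stood at 0.27 and -0.54. Timp1 and Tagln, which are also products of activated stellate cells, stood near 0. Dcn, which is read below among the quiescent stellate cell markers, stood near 0 as well.

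Pdgfrb, the receptor for platelet-derived growth factors B and D, gave opposite answers in its 2 probe sets. Probe set 1436970_a_at, the brighter one, stood at 205.7 in the congenic and 127 in the control liver, a log2 difference of 0.67 or 1.59-fold. Probe set 1417148_at stood at 15.4 in the congenic and 24.7 in the control liver, a log2 difference of -0.54, and lay below the median of the congenic array. The direction of Pdgfrb therefore rests on the brighter probe set. The ligand gene Pdgfb stood at 25.8 in the congenic and 13.6 in the control liver (0.73), and Pdgfa at 276.5 and 207.5 (0.41). Pdgfra and Pdgfd were slightly lower, at -0.13 and -0.30. Pdgfrb and Pdgfb were the 2 of 6 expressed genes of this family that were higher by 1.5-fold or more, and none was lower by that much. Pdgfb passed the filter through the congenic array alone, and of the 5 genes that reached the median of both arrays 1, Pdgfrb, was higher.

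The TGF-beta pathway, the other main input to stellate cells, was close to even. Of 25 expressed genes, 1 was higher and 2 were lower by 1.5-fold or more, with a median of 0.09. The higher one was Acvrl1, a type I receptor of endothelial cells, at 32.2 in the congenic and 10.9 in the control liver (1.22), and its other expressed probe set stood at -0.08. The ligand gene Tgfb1 was next at 46.2 in the congenic and 30.6 in the control liver (0.52). The 2 lower genes were Itgb6, an integrin subunit that activates latent TGF-beta (-0.83), and Ltbp2, a latent TGF-beta binding protein (-0.72). Acvrl1, Itgb6 and Ltbp2 each passed the filter through the array on which they are brighter, and of the 20 that reached the median of both arrays none was past 1.5-fold. The receptor genes Tgfbr1 and Tgfbr2 differed by 0.16 and 0.32.

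**Figure D4:**
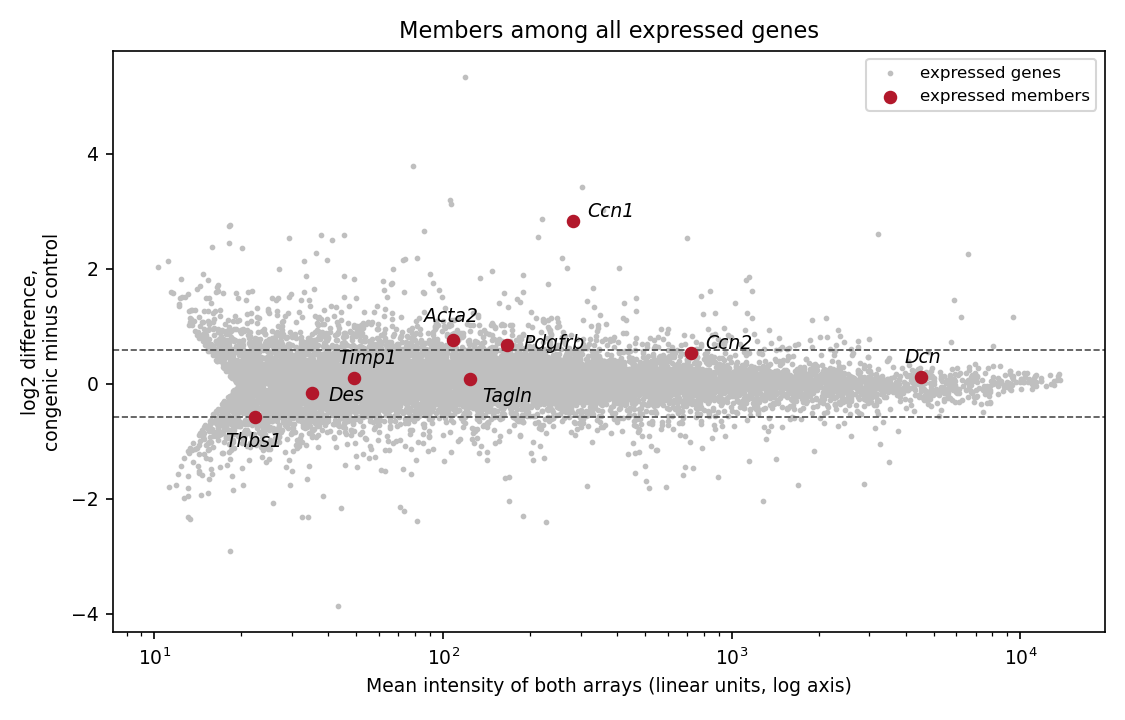
Log2 difference, congenic minus control, against the mean intensity of both arrays (log axis) for 12613 expressed genes (grey) and the 9 expressed members (red). The dashed lines mark 1.5-fold. Ccn1 stands well above the cloud at its intensity, Acta2 and Pdgfrb lie just above the upper line, and Thbs1 lies on the lower line among dim genes, where the cloud is widest.

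How much a 1.5-fold difference stands out depended on brightness. In the brightest of 3 equal groups of expressed genes, which holds Ccn1, Ccn2 and Dcn, 5.97% differed by 1.5-fold or more in either direction. The share was 9.82% in the middle group, which holds Acta2, Tagln and Pdgfrb, and 22.8% in the dimmest, which holds Thbs1, Des and Timp1. Among the 12613 expressed genes Acta2 had rank 536, Pdgfrb rank 700 and Ccn2 rank 1148 from the highest difference, and Thbs1 had rank 663 from the lowest. At 2-fold or more, Ccn1 was the only member, beside 1.99% of expressed genes higher, 1.45% lower and 3.44% in either direction.

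Markers of the cells that could carry these transcripts were read on the same arrays. Quiescent stellate cell markers were present on both arrays, with 16 of 16 genes that had a probe set expressed, 2 higher and 1 lower by 1.5-fold or more, and a median of 0.18. Their summed intensity was 11939 in the congenic and 10424 in the control liver. This list holds Des, Dcn and Pdgfrb, and without them 1 of 13 was higher and 1 lower, with a median of 0.25. The sums without them were 6994 in the congenic and 5894 in the control liver. Hgf passed the filter through the congenic array alone, and over the 12 that reached the median of both arrays the median was 0.18. Lrat, which makes the retinyl esters stored in stellate cells, stood at 216 in the congenic and 167 in the control liver (log2 difference 0.36), and Reln, reelin, at 520.5 and 570.1 (-0.13). The highest was Rgs5, a pericyte gene, at 1616 in the congenic and 732 in the control liver (1.14), with 4 probe sets between 0.40 and 2.84. Rgs5 carries most of the gap between the summed intensities of the livers. Gfap was the lowest at 26.4 in the congenic and 47.1 in the control liver (-0.73). With or without the 3 members, the summed level of the list differed by less than 1.5-fold between the livers.

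Markers of other cells that could carry the smooth muscle genes were read in the same way. Sums are compared between the livers and not between lists, whose probe sets differ. Smooth muscle and pericyte markers summed to 1363 in the congenic and 1202 in the control liver, with 1 of 6 expressed genes, Acta2, past 1.5-fold. Without Acta2 and Tagln the sums were 1098 in the congenic and 1002 in the control liver, and none of 4 was past 1.5-fold. Of the 12 listed, 7 lay below the array median in the congenic and 6 in the control liver, among them Myh11 and Cnn1, which define smooth muscle. Portal fibroblast markers summed to 982 in the congenic and 848 in the control liver, with 1 of 9 expressed genes higher, Thy1 (36.2 and 17.2, log2 difference 0.90), which passed the filter through the congenic array alone. Mesothelial markers summed to 209.8 in the congenic and 254 in the control liver, and the 2 of 5 expressed genes that were lower were Upk3b (-1.01), which passed through the control array alone, and Upk1b (-0.65). Skeletal muscle markers, which bear on Des, summed to 192 in the congenic and 217 in the control liver, with 10 and 9 of 12 genes below the array median. Of the 4 expressed muscle genes 1 was higher, Myl1 (0.71), the lowest was Actn3 (-0.56), and 1 of the 4 reached the median of both arrays. The portal fibroblast markers Gli1 and Clec3b were at the recurring value of 1 in the congenic liver, and the muscle marker Myh2 was at 1 in the control liver. Whether any of these cells contributed to the values of Acta2 or Des was not tested.

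Most neutrophil and macrophage markers and some platelet markers were higher by 1.5-fold or more in the congenic liver. Neutrophil markers summed to 4269 in the congenic and 1352 in the control liver, with 8 of 10 expressed genes higher and none lower. Of these 8, Camp, Ltf, Mpo and Prtn3 passed the filter through the congenic array alone, and of the 6 that reached the median of both arrays 4 were higher. Elane (0.24) and Csf3r (0.01) lay within 1.5-fold. Most of each neutrophil sum came from S100a8 (1769 in the congenic and 577 in the control liver) and S100a9 (1492 and 559). Kupffer cell and macrophage markers summed to 35130 in the congenic and 23541 in the control liver, with 9 of 14 higher and none lower. Platelet markers summed to 2099 in the congenic and 1370 in the control liver, of which Clec1b alone gave 1475 and 1007. Of 7 expressed genes 3 were higher (2 of 6 that reached the median of both arrays). They were led by Ppbp at 132 in the congenic and 40.6 in the control liver (log2 difference 1.58) and Pf4 at 309 and 154 (0.98). The other 4, Clec1b (0.55), Gp1bb (0.19), Itga2b (-0.02) and Treml1 (-0.28), lay within 1.5-fold. None of the marker lists of immune or blood cells had a gene at the recurring value of 1. The part of these cells in the values of Ccn1, Pdgfrb or the collagens was not tested.

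Of the expressed endothelial, biliary, fat and hepatocyte markers, 1 lay past 1.5-fold. Liver endothelial markers summed to 4800.1 in the congenic and 4511 in the control liver, with 0 of 14 higher and 1 lower, Lyve1 (-0.64), and Cdh5 highest (0.53). Cholangiocyte markers summed to 162 in the congenic and 180.2 in the control liver with 4 expressed genes, none past 1.5-fold, between Sox9 (-0.50) and Krt7 (0.31). The adipocyte list had 1 expressed gene, Adipoq (0.14), with summed intensities of 52.1 and 65.4 in the same order. Hepatocyte markers summed to 115255 in the congenic and 111171 in the control liver, and none of 12 lay past 1.5-fold, from Hnf4a (-0.26) to Fgb (0.17). Several of these probe sets, such as Alb, Ttr and Fgb, lay near the highest intensities of the arrays (14440.3 in the congenic and 13395 in the control liver), where a difference may not show.

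**Figure D5:**
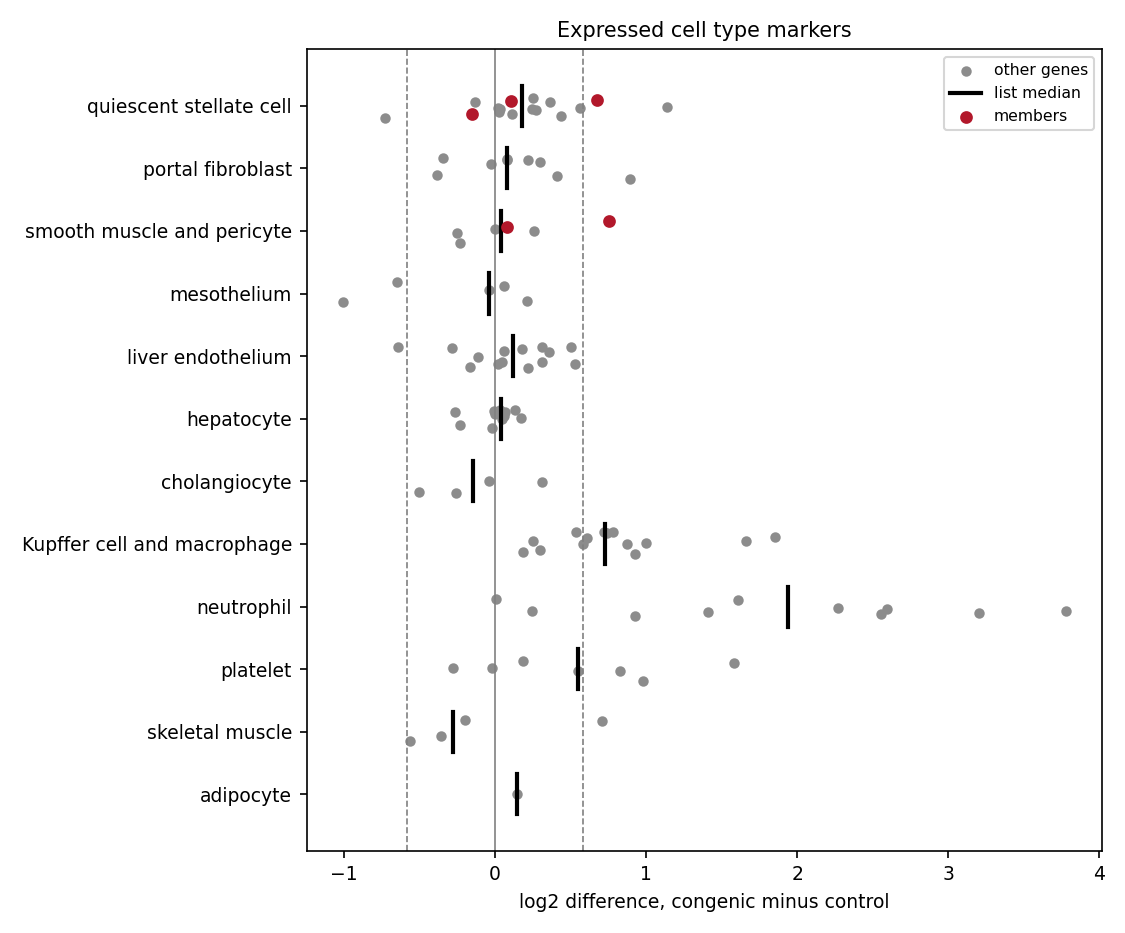
Log2 difference, congenic minus control, of each expressed cell type marker (points), with the members in red and list medians as bars. The dashed lines mark 1.5-fold. Neutrophil (median 1.94), Kupffer cell and macrophage (0.73) and platelet (0.55) lists lie to the right. The stellate (0.18), portal fibroblast (0.08) and hepatocyte (0.04) medians lie near 0. Genes that passed the filter through the congenic array alone raise some of these medians. Over genes that reached the median of both arrays, the neutrophil median was 1.17 and the platelet median 0.37. The Kupffer cell and macrophage median was then 0.73 and the stellate median 0.11.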

How the data were processed

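Liver RNA of 1 congenic and 1 control sample was labelled with biotin from 8 µg total RNA, per the labels' protocols. The deposited table holds linear intensity values for 45101 probe sets, and the labels do not say how the authors summarized probes or scaled the arrays. Control probe sets (64) were left out, and genes were named from the 34945 probe sets with 1 symbol in the platform annotation (932 had several and 9160 none). The array medians differed by -0.02 on the log2 scale, and the 3′ to 5′ ratio of actin was 1.68 in the congenic and 1.65 in the control liver, so values were used as deposited. A pseudocount of 5, near the 20th percentile of the intensities (4.58 and 4.89), was added before taking log2. With 1 array per group no test was run, and the number of arrays limits the precision. All 10 members with every probe set are named, with up to 2 highest and 2 lowest expressed genes of each list, and other genes named for their role. Members, lists and sizes were chosen with earlier results of these data known. Alternatives were other normalizations, pseudocounts, probe set rules and filters, and 2-fold. Software was Python 3.11.15, pandas 2.3.3 and statsmodels 0.14.6, tested on simulated data. Promoter windows came from RefSeq.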

Additional observations from a re-analysis of the deposited data

How the results depend on the processing

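No paired analysis was possible because each group has 1 array and the labels carry no replicate numbers, and no array could be left out. Under 10 alternatives the direction of every expressed member that had a value was kept, except that of Pdgfrb, which was -0.54 with only plain _at probe sets (0.06 as the mean of all its probe sets). Ccn1 stayed between 1.04 and 2.93, its lowest value coming with plain _at probe sets and 1.91 as the mean of all probe sets, and Acta2 between 0.08 and 0.79. The members that were higher by 1.5-fold or more numbered 1 with the mean of all probe sets and 1 with plain _at probe sets, where only Ccn1 passed, and 1 at 2-fold, against 3 as reported. The member that was lower, Thbs1, fell inside the limit (0 lower) with median centring, quantile normalization, the loess trend removed, a pseudocount of 20 and at 2-fold, and left the count (0 lower) with the 75th percentile filter or the median required on both arrays. The median over members was 0.60 with the 75th percentile filter, which keeps 6 members. Over all expressed genes, 251 were higher and 183 lower at 2-fold, 390 and 212 with the 75th percentile filter, 1598 and 1466 without a filter, and 559 and 349 with a pseudocount of 20, while 382 were lower with the median required on both arrays, against 957 and 664 as reported. These counts differ because fewer or more genes enter or because the size limit or pseudocount differs. Some list counts also moved with scaling. Higher YAP and TEAD targets numbered 4 after quantile normalization or loess trend removal, against 5. Higher fibrillar collagens numbered 3 after quantile normalization, against 4. Lower contractile genes numbered 1 after median centring, against 2. Immediate early genes were 3 higher and 5 lower after loess trend removal, against 4 of each. Higher stellate and macrophage markers numbered 3 and 10 after median centring, against 2 and 9. Low signal limits Lox and the dim probe sets of Acta2, Des and Dcn, which lay below the median of both arrays.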
